A study of Mus musculus with 6 samples.

Results

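The genes described here encode complement proteins and their regulators: Hc, C3, C2, Cfb, Cfd, C1qa, C1qb, C1qc and Serping1. They were taken by name, as all probe sets whose only symbol in the annotation of the array is one of these 9. That gave 11 probe sets of 7 genes, among 18193 genes with a probe set in all, and C3 and Cfd are not analysed here. The arrays were MOE430 V2 chips hybridised with RNA of whole lung from mouse fetuses at E18.5, close to birth, whose background mixed FVB/N with B6. The 3 Scap-deleted samples lacked Scap in respiratory epithelial cells, and the other 3 were controls. Scap encodes the escort protein of the SREBP transcription factors, which drive sterol and fatty acid synthesis, so the question put to the arrays is what the loss of that escort from the epithelium does to lung transcripts. The driver of the deletion and the alleles that the controls carry are not given in the sources used here, nor whether replicates are separate animals. The p-values therefore speak of the spread among these 6 samples alone, and that spread may be technical.

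Complement is a cascade of blood and tissue proteins that marks particles for uptake and punctures membranes. The classical route starts when C1q, built from the chains of C1qa, C1qb and C1qc, binds a target, and C1-inhibitor, encoded by Serping1, holds the proteases bound to C1q in check. C2 and factor B, encoded by Cfb, supply the catalytic parts of the convertases that cleave C3 and C5, and Hc encodes C5, the first protein of the membrane attack complex. Liver is the main source of most plasma complement, macrophages are the main source of C1q, and alveolar type II cells are a known site of Hc transcription in mouse lung.

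Promoter sequences of RefSeq on assembly GRCm38.p6 were at hand for 5 of the 9 genes, and for 3 of the 7 with a probe set. The 250 bases before the transcript start of these 3 are shown because Hc had the widest difference between the groups and C1qb and C1qc are neighbours on chromosome 4 whose chains join in 1 protein. Capitals mark motif matches. All are on the minus strand, and each is written 5′ to 3′ as the gene is read.
Hc, chr2:35061413-35061662: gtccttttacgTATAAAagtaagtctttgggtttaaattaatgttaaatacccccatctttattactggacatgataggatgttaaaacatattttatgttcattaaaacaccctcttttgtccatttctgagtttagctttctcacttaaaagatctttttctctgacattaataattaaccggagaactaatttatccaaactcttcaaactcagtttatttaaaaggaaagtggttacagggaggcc
C1qb, chr4:136886201-136886450: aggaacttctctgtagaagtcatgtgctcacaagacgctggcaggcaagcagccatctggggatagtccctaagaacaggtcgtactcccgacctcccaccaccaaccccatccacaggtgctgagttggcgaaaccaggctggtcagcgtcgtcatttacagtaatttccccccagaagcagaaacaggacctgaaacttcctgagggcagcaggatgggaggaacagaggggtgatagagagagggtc
C1qc, chr4:136892915-136893164: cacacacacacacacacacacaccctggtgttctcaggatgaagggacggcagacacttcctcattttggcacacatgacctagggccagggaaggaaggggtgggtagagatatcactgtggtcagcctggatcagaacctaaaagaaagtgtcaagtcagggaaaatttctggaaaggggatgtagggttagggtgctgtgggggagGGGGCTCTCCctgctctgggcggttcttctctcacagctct

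Both strands were searched for 6 motifs. The Hc window held 1 match, to the letters of the TATA box (TATAAA), at bases 239 to 234 before the start. Whether these letters act as a TATA box that far from the start was not tested. The C1qc window held 1 match to an NF-kB site, at bases 41 to 32 before the start. Letters from the sterol regulatory element that SREBP binds (CACCCCA), the E-box (CACGTG), the C/EBP half-site (GCAAT) and the interferon-stimulated response element were not found in these 3 windows, and C1qb had no match at all. Of the 2 further promoters at hand, that of C3 held the sterol element letters at bases 95 to 89 before its start, and C3 has no value here to set beside them. Of all 32851 promoter windows of this length, 12.4% held the TATA letters, 7.25% an NF-kB match, 6.68% the sterol element letters, 6.02% the E-box, 23.1% the C/EBP half-site and 2.98% the interferon element.

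Array medians of signal lay between 490.8 and 530.4 linear units. The arrays numbered 3 of both groups stood apart from the other 4 on the first principal component, with 36.6% of the variance. Differences of single genes without both of these arrays are given only for Hc and C2. As a check of the labels, the brightest Scap probe set read 4846 ± 2167 (SD, n = 3) in controls and 2612 ± 724 in Scap-deleted lungs, with overlapping groups (exact permutation p = 0.2). Of 17 tested genes on a list of SREBP targets that also holds Scap itself, 17 were negative. Scap was among the 13 that were lower at an unadjusted limma p of 0.05. It was not among the 12 whose groups did not overlap. Scd1, a fatty acid desaturase, stood at 16.5% of control. In the fit across 10972 genes above a brightness limit of 497.8 signal units, limma called 1 gene higher and 0 lower after adjustment at 0.05. Before adjustment, 316 genes were higher and 334 lower at 0.05. Below, a log2 difference is the Scap-deleted mean less the control mean, SE is its standard error from limma, adjusted p is Benjamini-Hochberg over these 10972 genes, and means are given ± SD with n = 3 arrays per group. In RNA of a whole organ, fewer cells of a type and less RNA per cell cannot be told apart.

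No complement gene passed the threshold. Of the 7 genes with a probe set, 6 were bright enough to be tested and Cfb was not. The median log2 difference of the 6 was -0.24, or 84.8% of control, beside 0.0051 over all genes tested, with 5 of 6 negative against 5296 of 10972. After adjustment limma called 0 of 6 at 0.05, where the background was 0.00911% higher and 0% lower. Before adjustment the count was 1 of 6, Hc, which was lower, where 5.92% of genes passed 0.05, 3.04% lower and 2.88% higher. Hc was also the 1 gene of 6 whose groups did not overlap, beside 11.8% of all genes tested, 5.72% lower and 6.11% higher.

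**Figure D1:**
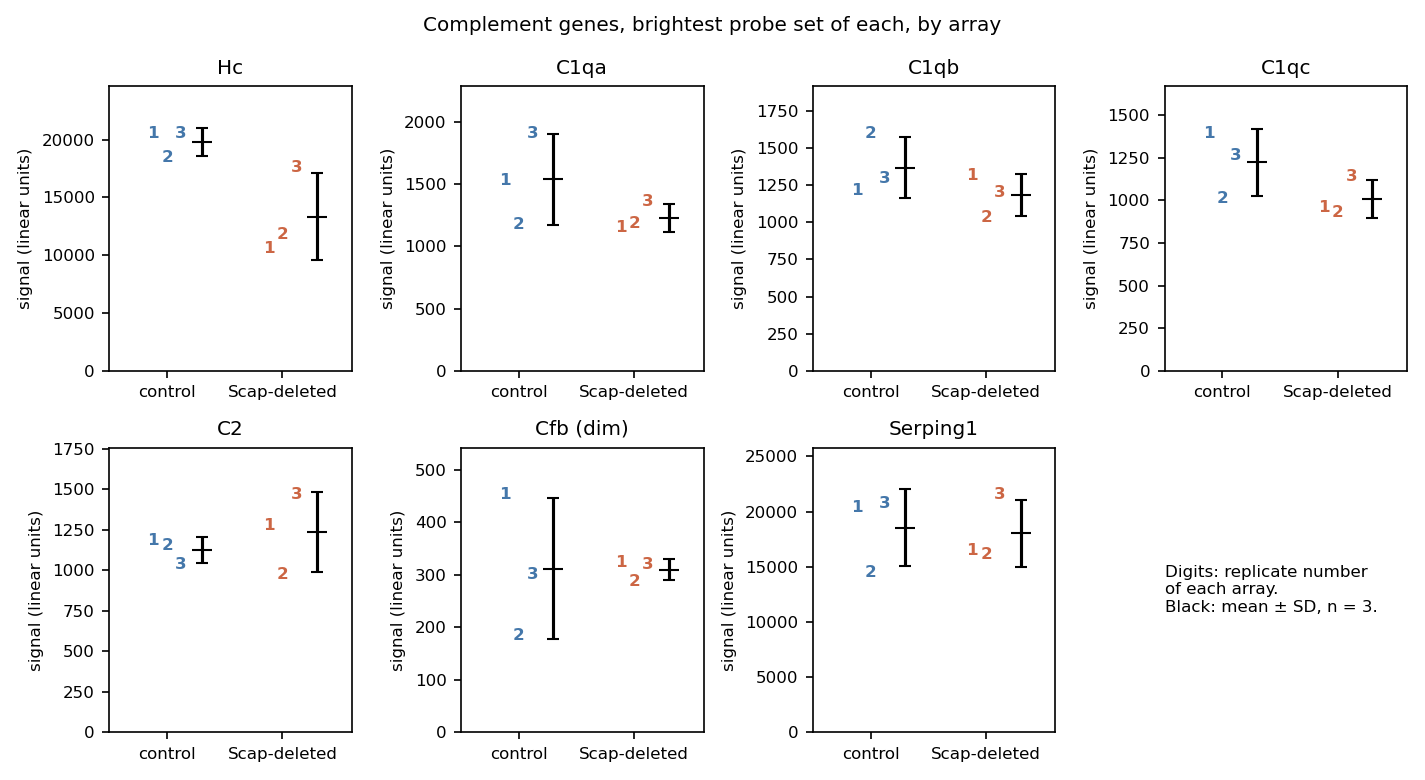
Signal of the brightest probe set of each of 7 complement genes on every array, in linear units on axes that start at 0; digits are replicate numbers, and black marks show the mean ± SD of 3 arrays. The 3 Scap-deleted arrays of Hc lie below all 3 controls, the third one closest to them, and the groups overlap for the other 6 genes.

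Hc, which encodes C5, had the largest difference of these genes. Control replicates 1 to 3 had signals of 20529, 18410 and 20519, and Scap-deleted replicates 1 to 3 had signals of 10567, 11809 and 17618. Every Scap-deleted array thus read below every control, with replicate 3 only just below the lowest control and the other 2 far below. The means were 19819 ± 1221 and 13332 ± 3764, a log2 difference of -0.61 (SE 0.19), or 65.7% of control with a 95% interval of 48.5% to 89.0%. Limma gave an unadjusted p of 0.0133 and an adjusted p of 0.739, and the exact permutation test gave p = 0.1, the smallest that 3 against 3 arrays allow. Of the 10972 genes tested, 72 had a lower log2 difference and 189 a smaller p.

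The size of the Hc difference varied between replicates. Within pairs of the same number, the Scap-deleted lung read 51.5%, 64.1% and 85.9% of its control for numbers 1, 2 and 3. Without both arrays numbered 3 it stood at 57.5% (log2 difference -0.80, adjusted p = 0.297). On the log2 scale the SD was 0.09 among controls and 0.39 among Scap-deleted lungs. Hc is represented by a single probe set, so no other probe set could be set beside it.

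Some markers of alveolar type II cells read lower along with Hc. Of 15 listed genes 13 were tested, 10 of them negative, with a median at 87.6% of control. The 2 brightest, the surfactant protein gene Sftpc and the phosphate transporter gene Slc34a2, stood at 100.6% and 91.7%. Of the 13, 5 were lower and 0 higher at an unadjusted p of 0.05, where 3.04% and 2.88% of all genes were. Their summed signal, over the 14 with a probe set, ranged from 404222 to 490533 in controls and from 353547 to 426894 in Scap-deleted lungs. The list mean on Scap-deleted replicate 3 was 0.10 above its 6-array average in log2 units, against -0.28 on each of the other 2. Hc too was highest on replicate 3 of the Scap-deleted lungs, and so were the means of the macrophage list (0.21), the fibroblast list (0.14) and the list of lung epithelium in general (0.068), so this feature is not particular to type II markers. A lower median was not particular to them either. Of 9 tested airway secretory markers 8 were negative, with a median at 86.9% and 0 lower at an unadjusted limma p of 0.05. Of 10 tested endothelial markers 8 were negative, with a median at 88.3% and 1 lower at that p. Of the markers of lung epithelium in general, 8 of 13 tested were positive and the median stood at 103.1%. The 2 brightest were Cldn18, a tight junction gene, at 105.8% and Cdh1, E-cadherin, at 109.8%. The list was not uniform. At an unadjusted limma p of 0.05, 2 were lower, Epcam at 77.3% and Elf5 at 76.6%, and 1 was higher, Cldn4 at 135.9%. The groups of 4 of the 13 did not overlap, beside 11.8% of all genes. Relative to the mean log2 signal of the general list, Hc was lower by -0.62, and relative to the type II list by -0.30, in both cases with every Scap-deleted array below every control. These ratios were chosen after the values were seen, and the part of the type II markers in the Hc difference was not tested.

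**Figure D2:**
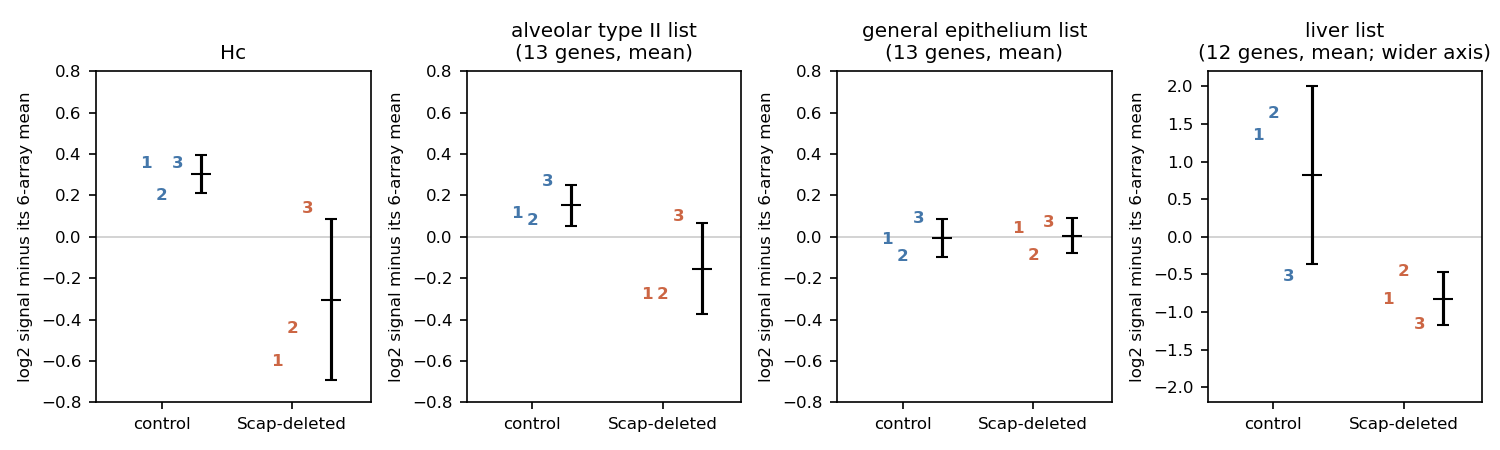
Log2 signal of Hc and mean log2 signal of 3 marker lists on each array, each minus its own average over the 6 arrays; digits are replicate numbers, black marks are mean ± SD of 3 arrays, and the liver panel has a wider axis. Hc and the alveolar type II list are lowest on Scap-deleted replicates 1 and 2, the general epithelium list is level, and the liver list is high on control replicates 1 and 2 only.

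Liver transcripts were present on some control arrays. Of the 12 listed liver genes, 0 passed the brightness limit, and their summed signal was 4618, 11028 and 1499 across the controls against 1176, 1200 and 1019 across the Scap-deleted lungs. Alb, serum albumin, read 1800, 1048 and 219.1 in controls and 256.8, 132.8 and 260.5 in Scap-deleted lungs. Afp, alpha-fetoprotein, read 693.2, 6700 and 22.2 in controls and 64.0, 45.1 and 40.1 in Scap-deleted lungs. Control replicate 3, with the lowest liver sum of the controls, had an Hc signal of 20519, and control replicate 2, with the highest, had the lowest Hc of the controls. The part of liver RNA in the Hc difference was not tested.

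FVB/N mice are known to carry a frameshift allele of Hc that leaves their serum without C5, while B6 mice carry an intact allele, and the labels do not give the Hc alleles of these samples. Whether alleles differed between the groups was not tested. Of the 10 protein-coding genes nearest to Hc in the order of assembly GRCm38.p6, 7 were tested, and they stood between 92.8% and 144.6% of control. The highest was Traf1, the gene next to Hc, which encodes an adaptor of TNF receptors. Of the 7, 0 passed an unadjusted limma p of 0.05, beside 5.92% of all genes tested. The groups of 0 of the 7 did not overlap, beside 11.8% of all genes tested.

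The genes whose pattern over the 6 arrays was most like Hc were taken by the root mean square distance between log2 signals centred on their own means. They were Cdo1, cysteine dioxygenase, at a distance of 0.10, Cyp4v3, a fatty acid hydroxylase, also at 0.10, and the zinc finger gene Zfp511 at 0.11, where the median gene lay at 0.41. Cdo1 read 4304 ± 436 in controls and 2896 ± 545 after Scap deletion, which is 66.8% of control. Cyp4v3 stood at 71.1% and Zfp511 at 72.6%. Since these genes were picked for their likeness to Hc on the same arrays, a similar group difference follows from the choice.

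The mean signals of all 3 chains of C1q were lower after Scap deletion, and none was past the threshold. C1qa, the A chain, read 1530, 1177 and 1906 in controls and 1152, 1181 and 1361 in Scap-deleted lungs. The controls ranged widely, and replicate 2 of the controls lay within the range of the Scap-deleted arrays. The log2 difference was -0.30 (SE 0.18), or 81.4% of control with a 95% interval of 61.0% to 108.5% (adjusted p = 0.889). It was -0.48 without control replicate 2 and -0.13 without control replicate 3, so single controls moved it by more than 1.5 times.

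C1qc, the C chain, read 1391, 1009 and 1265 in controls and 958.9, 926.2 and 1137 in Scap-deleted lungs. Only the Scap-deleted replicate 3 lay within the control range. The log2 difference was -0.27 (SE 0.15), or 82.9% of control with an interval of 65.4% to 105.0% (adjusted p = 0.874). It was -0.17 without control replicate 1, where C1qa was -0.29.

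C1qb, the B chain, has 3 probe sets. The brightest read 1216, 1598 and 1294 in controls and 1315, 1036 and 1204 in Scap-deleted lungs, 86.7% of control with an interval of 69.0% to 108.9% (adjusted p = 0.899). Without control replicate 2 its log2 difference was -0.089, and without Scap-deleted replicate 2 it was -0.11, against -0.21 with all arrays. Here control replicate 2 was the highest array, while for C1qa and C1qc it was the lowest control. The brightest probe set carries the suffix that Affymetrix gives to probes that may also match other transcripts, as does another one, which stood at 87.5%. The probe set without that suffix read 1233, 1031 and 1132 in controls and 1186, 925.6 and 1109 in Scap-deleted lungs, and it stood at 94.6% (exact permutation p = 0.6). On that probe set too, control replicate 2 was the lowest control.

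C1qb lies next to C1qc, and C1qc next to C1qa, in the gene order of assembly GRCm38.p6. Centred on their own means, the log2 signals of C1qa and C1qc were 0.14 apart (root mean square over 6 arrays), and the brightest C1qb probe set was 0.33 from C1qa and 0.28 from C1qc. The tested genes nearest to that C1qb probe set were Ldlrad3 at 0.05, which encodes a membrane protein of the LDL receptor family, the expressed sequence AI429214 at 0.05 and Pibf1 at 0.06. The median gene lay at 0.24. They stood at 88.0%, 85.0% and 84.7% of control.

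Markers of macrophages did not read lower as a list. Of 20 listed genes 16 were tested, with 11 positive and a median at 104.5% of control. In limma 0 of the 16 passed an unadjusted p of 0.05, beside 5.92% of all genes. The summed signal of the list, over 19 genes, ranged from 58842 to 68739 in controls and from 59266 to 69496 in Scap-deleted lungs. The brightest of them were Lyve1, a hyaluronan receptor that lymphatic endothelium also makes, at 86.5%, and Ctss, a lysosomal protease, at 103.0%. Relative to the mean log2 signal of the 16 macrophage genes, C1qa was lower by -0.37 and C1qc by -0.34 with no overlap of the groups, and C1qb was lower by -0.28 with overlap. These ratios, chosen after the values were seen, describe the arrays and were given no test. Of 15 markers of other leukocytes 6 were tested, with a median at 110.3% of control. At an unadjusted limma p of 0.05, 1 was higher and 0 lower, where 2.88% and 3.04% of all genes were. That gene was Ccr2, at 130.4%, and its groups did not overlap, beside 11.8% of all genes.

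C2 and Cfb lie side by side in the major histocompatibility complex region and encode related serine proteases. The brightest C2 probe set read 1184, 1154 and 1037 in controls and 1277, 975.6 and 1465 in Scap-deleted lungs, so that the Scap-deleted arrays spread to both sides of the controls. It stood at 108.8% of control with a 95% interval of 84.4% to 140.2% (adjusted p = 0.959). The other 2 probe sets stood at 104.9% and 94.8%, and the brightest turned to 95.5% without both arrays numbered 3 and to a log2 difference of -0.0089 without Scap-deleted replicate 3. The last, and the only C2 probe set without the Affymetrix suffix for shared probes, read 914.8, 836.0 and 1204 in controls and 772.4, 877.9 and 1156 in Scap-deleted lungs. On it the arrays numbered 3 were the highest of both groups.

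Cfb was dim. Its single probe set read 451.7, 183.5 and 299.7 in controls and 323.0, 286.2 and 319.5 in Scap-deleted lungs, below the brightness limit, so it was not tested across genes. The Scap-deleted arrays lay close together within the range of the controls (exact permutation p = 0.8). The tested genes with the most similar pattern were Sting1, a sensor of cyclic dinucleotides in innate immunity, B4galt4 and Msrb1, at distances of 0.13, 0.14 and 0.16 where the median gene lay at 0.40.

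Serping1, which encodes C1-inhibitor, read nearly the same in both groups. Its signal was 20358, 14523 and 20760 in controls and 16481, 16116 and 21506 in Scap-deleted lungs. The lowest array was a control and the highest a Scap-deleted one. It stood at 97.6% of control, and the 95% interval of 73.3% to 130.1% leaves room for a change in either direction (adjusted p = 0.992). The sign turned when any of 4 single arrays was left out, with log2 differences from -0.20 without control replicate 2 to 0.056 without control replicate 3. Fibroblasts are a known source of C1-inhibitor, and among 13 tested fibroblast markers 10 read below control; the list median was 95.6%, with Mfap4 at 95.6%, while the collagen gene Col3a1 stood at 106.7%.

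**Figure D3:**
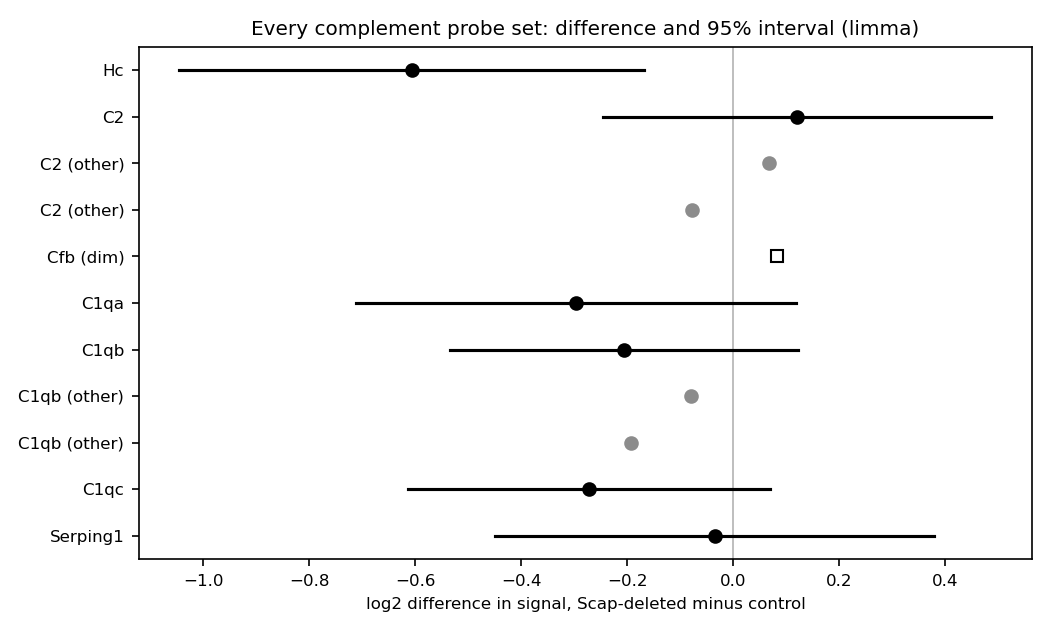
Log2 difference, Scap-deleted minus control, of all 11 complement probe sets; black points are the brightest probe set of a gene with its 95% interval from limma, grey points are further probe sets, and the open square is the dim Cfb. The interval of Hc lies below 0, from -1.04 to -0.17, and those of the other 5 tested genes span 0.

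The rest of the complement system was read from 4 lists of 45 genes, 38 of them with a probe set and 15 bright enough to test. Their median log2 difference was -0.06, with 7 positive and 8 negative. After adjustment limma called 0. Before adjustment, at 0.05, 2 were lower and 0 higher, beside 3.04% and 2.88% of all genes, and the groups of 3 did not overlap, beside 11.8% of all genes.

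Among regulators, Cd55, or decay-accelerating factor, which takes convertases apart, read 1576, 1589 and 1842 in controls and 1341, 1233 and 1358 in Scap-deleted lungs. All Scap-deleted arrays lay below all controls. It stood at 78.7% of control (log2 difference -0.35, SE 0.10), with an unadjusted limma p of 0.0111 and an adjusted p of 0.739. Cr1l, or Crry, the rodent membrane regulator of C3 convertases, stood at 88.1% without overlap (adjusted p = 0.852). Cd59a, which blocks the membrane attack complex, stood at 89.9%, and Clu, clusterin, at 105.9%.

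Among receptors, C3ar1, which binds the C3a fragment, read 694.0, 611.8 and 633.1 in controls and 552.2, 529.2 and 520.8 in Scap-deleted lungs, again without overlap. It stood at 82.7% (log2 difference -0.27, SE 0.093), and limma gave an adjusted p of 0.751. Calr, listed because its protein can bind C1q but best known as a chaperone of the endoplasmic reticulum, stood at 121.9%. The C1q receptor candidate Cd93, an endothelial surface protein, stood at 92.3%, and the integrin chain Itgb2 at 115.2%.

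C6, which joins C5b in the membrane attack complex, was the only tested gene of the terminal components. Its signal was 3299, 2370 and 3151 in controls and 1009, 1408 and 3355 in Scap-deleted lungs. Replicates 1 and 2 of the Scap-deleted lungs were below every control and replicate 3 was above all of them. The log2 difference was -0.79 (SE 0.40), which is 57.8% of control (limma, adjusted p = 0.865). For both Hc and C6 the highest Scap-deleted array was replicate 3.

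Of the activating proteases and recognition proteins, 3 of 5 tested were positive and the groups of all 5 overlapped. Masp1, a protease of the lectin route, stood at 116.5% of control, and Cfp, properdin, which stabilises the alternative convertase, at 109.1%. The proteases that C1q carries stood at 92.4% for C1ra and 114.9% for C1s1.

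**Figure D4:**
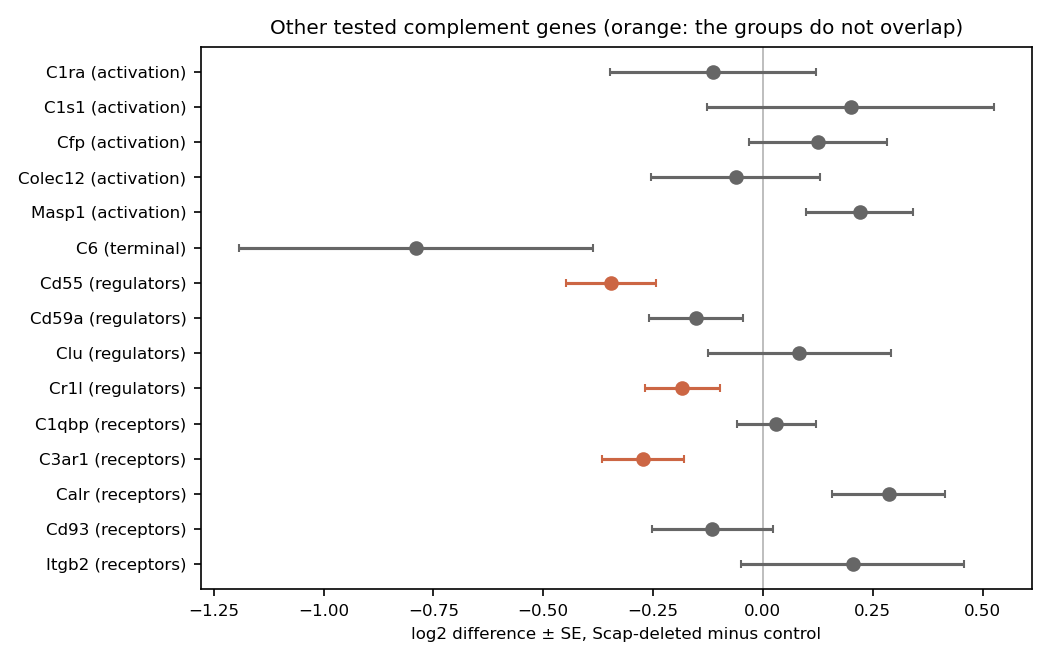
Log2 difference with its SE, Scap-deleted minus control, of the 15 other complement genes tested, ordered by role; orange marks the 3 genes whose groups do not overlap. Cd55, Cr1l and C3ar1 lie below 0, and C6 has the lowest value, -0.79, with the widest error.

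A further list of 24 genes held factors known to induce complement genes, together with acute-phase and other response genes. Of these 24, 15 were tested, and the counts below do not separate inducers from the rest. Limma called 0 of 15 after adjustment. At an unadjusted p of 0.05 the count was also 0 of 15, beside 5.92% of all genes. Of the 15, 9 were positive, and the median stood at 103.9% of control. Cebpa, a transcription factor of liver and alveolar epithelium, read 12452, 11416 and 14243 in controls and 8966, 9010 and 12312 after Scap deletion, which is 78.9% of control (adjusted p = 0.849). Stat3, which carries the interleukin-6 signal, stood at 113.5%, and the interferon-induced Irf1 and Gbp2 at 112.8% and 88.3%.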

How the data were processed

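Per the labels, each of 6 MOE430 V2 arrays measured RNA of whole lung at E18.5, from 3 control and 3 Scap-deleted samples. The authors deposited linear intensity values for 45101 probe sets. The submitters' processing notes name RMA, but the values are neither log2 nor quantile normalized, so how background was corrected is not known. The 2% trimmed mean lay between 1495.5 and 1495.9 on every array, so the arrays had been scaled to a common mean. No detection calls were used.

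Of 45037 probe sets without Affymetrix controls, 34945 carried 1 symbol, 932 several and 9160 none. Log2 signals of the brightest probe set per gene were fitted in limma 3.58.1 (lmFit, eBayes) under R 4.3.3. Genes with a mean log2 signal under the median of all probe sets (7221) were not tested. Single probe sets were compared by exact two-sided permutation. The steps were tested on simulated data.

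Members and lists were chosen with earlier results of these data known. Named genes are all members; up to 4 of smallest p from each further complement list and the inducers; the genes nearest to Hc, Cfb and C1qb; and the 2 brightest markers of a list. Traf1, Mbl1, Cd46, Epcam, Elf5, Cldn4, Ccr2, Sftpa1, Abca3, Rab27a, Lpcat1 and Sftpb were chosen after their values were seen.

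Both groups carry numbers 1 to 3. Deviations from group means correlated at 0.17, 0.20 and 0.43 between same-numbered arrays. Control 2 and Scap-deleted 1 reached 0.18, more than the arrays numbered 1, so it is not certain that the numbers are pairs. The main fit was unpaired. The numbers served as pairs only in the within-pair values of Hc and in the replicate block.

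Motifs were searched in RefSeq promoters (GRCm38.p6). Alternatives tried were a replicate block, quantile normalization, a pseudocount of 50, no filter or one at the 75th percentile, single or averaged probe sets, a trended robust fit, and leaving out arrays.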

Additional observations from a re-analysis of the deposited data

How the results depend on the processing

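Under all 15 alternatives 0 complement members and 0 of the wider complement list were called. The difference of Hc kept its sign in all 15, with a log2 difference from -0.83 without Scap-deleted replicate 3 to -0.46 without Scap-deleted replicate 1, unadjusted limma p from 0.000236 to 0.0459 and adjusted p from 0.198 to 0.999. C1qa, C1qb and C1qc kept their sign in all 14 that tested them. The median of the members ranged from -0.32 to -0.14, over sets that differ. The lowest was over the 2 members that passed the filter at the 75th percentile, and the highest over 10 single probe sets. When 1 array was left out, it ranged from -0.30 to -0.16. With the replicate block, Hc had adjusted p = 0.408, and the pairing changed no call of a complement gene. The count of all genes called, 1, became 0 with the replicate block, without a filter, with the filter at the 75th percentile, with every probe set tested singly, without both arrays numbered 3 and with the trended robust fit, and ranged from 0 to 1 when 1 array was left out. The gene called with all arrays was higher, and the 1 called without Scap-deleted replicate 2 was lower, so the higher call was lost in all 6 of these fits. Serping1, near 0, ranged from -0.20 to 0.056 when 1 array was left out, turning positive in 4 of 6 cases (0.042 and 0.056 without control replicates 1 and 3, 0.024 and 0.040 without Scap-deleted replicates 1 and 2). C2 ranged from -0.0089 to 0.28 in the same way and was -0.067 without both arrays numbered 3. The cause was not tested. The number of arrays and the lack of detection calls limit what can be said of dim genes such as Cfb.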

Other observations

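Among complement genes too dim to be tested, Mbl1, which encodes a mannose-binding lectin that recognises microbial sugars, stood out. Controls read 607.8, 624.0 and 564.2 and Scap-deleted lungs 298.2, 261.0 and 412.8, which is 53.1% of control, with every Scap-deleted array below every control. When all 18193 genes were fitted with no filter, limma gave an unadjusted p of 0.00423 and an adjusted p of 0.641, and the exact permutation p was 0.1, the smallest possible. Liver is the usual source of this lectin, and the summed signal of 12 liver markers was 4618, 11028 and 1499 in controls and 1176, 1200 and 1019 in Scap-deleted lungs. The part of liver RNA in the Mbl1 difference was not tested. Cd46, a membrane cofactor for the inactivation of C3b, averaged 590.8 ± 64.7 in controls and 421.7 ± 124 (SD, n = 3) after Scap deletion (exact permutation p = 0.2), with overlap. Both were picked for their values.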
